A study of Mus musculus with 36 samples.

Results

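Control forebrains of mouse embryos were compared between embryonic day 10.5 (E10.5) and E12.5, using 6 of the 18 libraries of the series and 12 of its 36 sequencing runs. The series was made to measure the effect of lowered *Chd8*, which encodes a chromatin remodeller, on the developing neocortex, and each stage has its own controls. At E12.5 the controls were 3 *Chd8* +/+ neocortices, each from 1 embryo. At E10.5 they were 3 pools of telencephalic vesicles, each made from the RNA of 2 embryos, in which exon 3 of *Chd8* was flanked by loxP sites and the labels give the genotype as a combination of Chd8 f/f and f/+. All were of the C57Bl/6J strain, the labels call the tissue cortex at both stages, and the mutant libraries were used only where they are named. Stage differs here together with dissection, pooling, *Chd8* allele and the sequencing batch, and what stage adds cannot be told apart from what these add.

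Total counts per library ranged from 49632937 to 55190000 at E10.5 and from 42782134 to 50452472 at E12.5. Levels are CPM, the counts of a gene scaled by library size and by TMM factors, given by library in the order of replicates 1 to 3, and as mean ± SD (n = 3). Differences are log2 fold changes of E12.5 against E10.5 with their standard error (SE), tested with edgeR over 18580 genes, and genes are said to have risen or fallen where the Benjamini-Hochberg adjusted p lay below 0.05. In bulk tissue, fewer cells of a type and less RNA per cell cannot be told apart.

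Between these stages the mouse telencephalon passes from a sheet of dividing neuroepithelial cells to a layered wall. Neuroepithelial cells become radial glia, which divide at the ventricle and, by switching on proneural factors, give rise to intermediate progenitors and to the first neurons. These neurons collect in the preplate together with Cajal-Retzius cells, which enter from the edges of the cortical sheet. Inhibitory neurons are born ventrally, in the ganglionic eminences, and migrate into the cortex later. Early embryonic cells also express a set of heterochronic genes, led by *Lin28a*, *Lin28b* and *Trim71*, that hold cells in an early state and are tied to the let-7 microRNAs in a loop: LIN28 proteins block the maturation of let-7, and let-7 represses *Lin28a*, *Lin28b*, *Trim71* and *Hmga2* through sites in their 3' untranslated regions.

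The sequences of this loop are shown because the heterochronic genes were among the genes that fell most. The RefSeq miRNA table (GRCm38.p6) holds 11 mature microRNAs with the bases 2 to 8 of let-7, the seed, here in capitals. They include miR-98 and miR-1961 beside those named let-7. The let-7a copy shown lies at chr13:48538239-48538260 on the minus strand.
let-7a: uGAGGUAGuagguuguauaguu
let-7g: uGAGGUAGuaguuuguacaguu
let-7i: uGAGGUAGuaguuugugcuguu
miR-98: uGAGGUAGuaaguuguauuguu

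The first match to this seed after the stop codon is shown for 5 of the genes (GENCODE M21 transcripts, GRCm38, all on the minus strand), with the 7 bases that pair with the seed in capitals. They lie at chr4:134005188-134005211 (*Lin28a*), chr10:45381021-45381044 (*Lin28b*), chr9:114512471-114512494 (*Trim71*), chr10:120364223-120364246 (*Hmga2*) and chr2:38727718-38727741 (*Nr6a1*).
Lin28a: gcacagcctgttgaaCTACCTCat
Lin28b: acccgggcgggaagtCTACCTCat
Trim71: aacattgcctaagtcCTACCTCag
Hmga2: gccgacattcaatttCTACCTCag
Nr6a1: gagactgtggagcagCTACCTCca

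Large shares of the genes tested differed between the stages. A rise by E12.5 was called for 6265 genes (33.7%) and a fall for 6275 (33.8%), with changes of at least 2-fold in 2848 (15.3%) and 1690 (9.1%). The counts given for gene lists below are to be read against these shares of all genes. The median log2 fold change of all genes was -0.01. TMM scaling centres the bulk of genes near no change, so this median and the balance of rises and falls follow in part from it. Across log2 CPM, libraries of 1 stage had correlations of 0.9913 to 0.9949 and libraries of different stages 0.9071 to 0.9272. A principal component analysis took only the 1000 genes that varied most over these 6 libraries. Its first component separated the stages and held 95.2% of the variance of those genes, a share that follows in part from their choice. Of the genes at least 2-fold higher, 90.5% had every one of the 12 E12.5 libraries, mutants included, above every one of the 6 E10.5 libraries, which held for 25.4% of all genes tested. Of those at least 2-fold lower, 81.8% had the 12 below the 6, against 25.3% of all genes. The 2-fold genes were chosen on the control libraries, which are among those compared, so part of this separation follows from the choice. The mutants also shared the sequencing runs of their stage, so this is not independent support.

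Several properties of the libraries moved with stage. The mitochondrial genome took 0.765% to 0.966% of counts at E10.5 and 2.53% to 2.97% at E12.5. Of 118 small nucleolar RNAs tested, 63.6% were at least 2-fold lower at E12.5, and of 766 processed pseudogenes 29.9%, against 7.27% of 14959 protein-coding genes. The median log2 fold change rose with exon length, summed over the exons of a gene. It was -0.25 in the fifth of genes with the shortest sum and 0.22 in the fifth with the longest. These shifts cannot be told apart from stage. Within E10.5, pool 2 stood apart: it had the lowest level of the 3 pools for 26 of 32 newborn neuron genes, 21 of 24 proneural genes and 17 of 19 globin and erythroid genes, and the highest for 24 of 25 surface epithelium genes, where 36.4% and 34.1% of all genes were lowest and highest there. It was also the pool without *Xist* (3.05 CPM, against 1768 and 2118), with 4 Y-linked genes summing to 245 CPM. At E12.5 embryos 1 and 2 were of this kind and embryo 3 had *Xist* at 2094 CPM.

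Progenitor genes as a group were held or rose moderately. Of 26 genes of neuroepithelial cells and radial glia, 17 rose and 4 fell, with a median log2 fold change of 0.58. *Sox2*, a factor that keeps neural progenitors dividing, was measured at 204, 207 and 207 CPM at E10.5 and 235, 205 and 238 CPM at E12.5, so that the stages overlapped (log2 fold change 0.14, SE 0.07, adjusted p = 0.0953). *Pax6*, the dorsal progenitor factor, was 189, 151 and 186 CPM and then 162, 152 and 159 CPM, which overlapped as well (-0.15, adjusted p = 0.124, and -0.24 with adjusted p = 0.00523 without pool 2). The Notch effector *Hes1* was also within its spread, at 41.2 ± 1.08 and 39.2 ± 2.01 CPM.

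Among the genes of this list that rose were several of radial glia, by different amounts. The largest rise in the list was that of *Mt3*, by 3.22 on the log2 scale. *Fabp7*, a lipid carrier that marks radial glia, was 49.0, 29.3 and 37.7 CPM at E10.5 and 221, 268 and 243 CPM at E12.5, a log2 fold change of 2.66 (SE 0.19, adjusted p = 2.36e-05). The 2 sets of libraries were far apart. The glutamate transporter *Slc1a3* rose from 31.5 ± 4.45 to 103 ± 5.92 CPM, the endothelin receptor *Ednrb* from 12.6 ± 2.95 to 106 ± 6.00 CPM and the intermediate filament gene *Nes* from 499 ± 30.3 to 859 ± 61.9 CPM. In the Notch pathway, through which newborn cells keep their neighbours undifferentiated, 15 of 24 genes rose and 4 fell. The ligand *Dll3* rose by 2.06, the receptor *Notch1* by 1.43, the effector *Hes5* by 0.73 and the modulator *Dtx1* by 4.13 on the log2 scale.

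Proneural and intermediate progenitor genes rose together. Of 24 tested, 22 rose, 17 of them at least 2-fold, and 0 fell, with a median log2 fold change of 1.82. *Neurog2*, the proneural factor of dorsal progenitors, was 28.2, 8.56 and 21.7 CPM at E10.5 and 104, 106 and 109 CPM at E12.5 (log2 fold change 2.45, SE 0.47, adjusted p = 0.00925). *Eomes*, the factor of intermediate progenitors, was 41.2, 8.86 and 38.4 CPM and then 151, 158 and 165 CPM (2.42, SE 0.63, adjusted p = 0.0269). For both, pool 2 was far below the other pools and all pools were below all E12.5 embryos. Without pool 2 the log2 fold change of *Eomes* was 2.00 (adjusted p = 6.65e-12), and its call was lost without any 1 of the other libraries, where the adjusted p was 0.0543 to 0.0763.

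*Insm1*, a zinc finger factor of delaminating progenitors, was even among libraries, with 13.5, 10.1 and 12.1 CPM at E10.5 and 70.9, 69.1 and 75.1 CPM at E12.5 (log2 fold change 2.59, SE 0.10, adjusted p = 1.01e-09). *Neurod1*, which follows *Neurog2*, rose by 2.70 and *Nhlh1* by 3.39 on the log2 scale. *Neurog1* did not pass the test, at 17.2, 9.23 and 13.9 CPM and then 13, 10.1 and 13.7 CPM, with overlapping stages (-0.13, adjusted p = 0.636, and -0.33 with adjusted p = 0.0458 without pool 2).

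**Figure D1:**
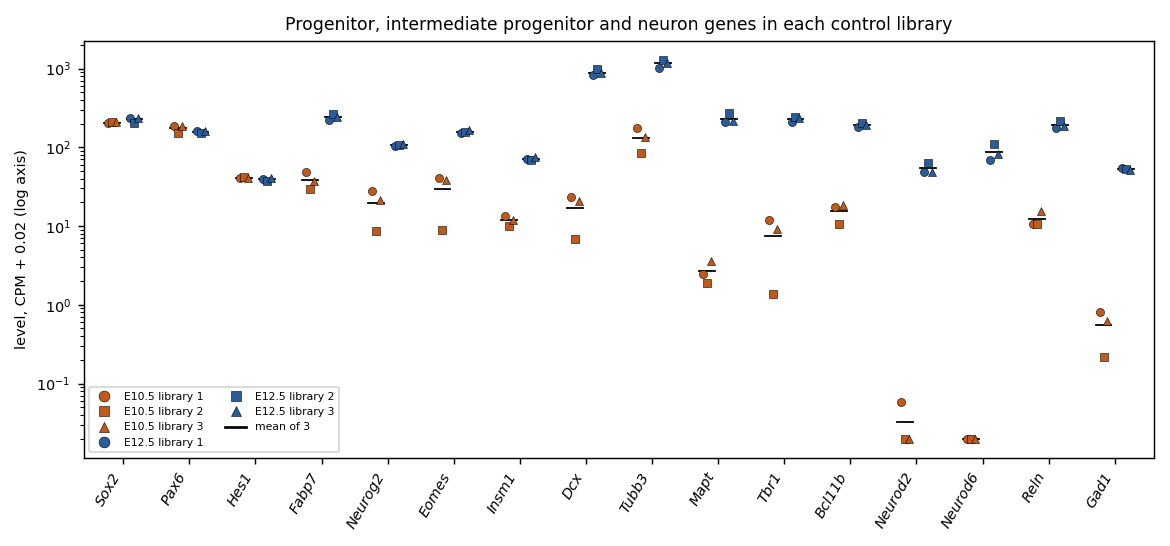
Levels of 16 genes of progenitors, intermediate progenitors and neurons in each library, in CPM plus 0.02 on a log axis. Orange marks E10.5 pools and blue E12.5 embryos, a circle, square and triangle stand for replicates 1, 2 and 3, and black lines are means of 3. *Sox2*, *Pax6* and *Hes1* overlap between stages, the neuronal genes do not, and E10.5 pool 2 (square) is lowest for *Eomes*, *Dcx* and *Tbr1*.

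All 32 tested genes of newborn neurons and their cytoskeleton rose, each at least 2-fold, with a median log2 fold change of 3.04. *Dcx*, a microtubule-binding protein of migrating neurons, was 23.7, 6.79 and 20.8 CPM at E10.5 and 822, 974 and 871 CPM at E12.5 (log2 fold change 5.70, SE 0.58, adjusted p = 0.000893, and 5.33 without pool 2). *Mapt*, which encodes the axonal protein tau, was 2.43, 1.89 and 3.56 CPM and then 207, 272 and 213 CPM (6.45, SE 0.24, adjusted p = 6.1e-07). Neuronal tubulin, *Tubb3*, was already at 174, 84.2 and 135 CPM at E10.5 and reached 1028, 1295 and 1171 CPM. Per kilobase of exon, *Tubb3* at E10.5 (70.0 CPM per kilobase) was thus far above *Dcx* (1.35) and *Mapt* (0.349).

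The transcription factors of cortical neurons did not move alike. Of 30 tested, 26 rose, 23 of them at least 2-fold, and 1 fell. *Neurod6*, a factor of excitatory neurons after their last division, had 0 counts in every E10.5 pool and 69.4, 109 and 81.8 CPM at E12.5, at least 1537-fold higher than a floor of 3 counts per library. *Neurod2*, its close relative, was at least 953-fold higher, at 48.5, 63.7 and 48.9 CPM. Both were also at the floor in the 3 E10.5 libraries of Sox1-Cre; Chd8 f/f embryos.

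*Tbr1*, which specifies preplate and deep-layer neurons, was 11.7, 1.34 and 9.14 CPM at E10.5 and 212, 241 and 238 CPM at E12.5 (log2 fold change 4.95, SE 0.75, adjusted p = 0.00459, and 4.47 without pool 2). *Bcl11b*, a factor of subcortical projection neurons, rose from 15.5 ± 4.16 to 194 ± 10.8 CPM and *Nfib*, a nuclear factor I gene, from 24.8 ± 3.85 to 305 ± 20.8 CPM. *Fezf2*, which acts in progenitors and in deep-layer neurons, was 75.2, 62.4 and 73.2 CPM and then 69.9, 73.4 and 68.7 CPM, with overlapping stages (0.01, SE 0.08, adjusted p = 0.938).

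Cajal-Retzius and preplate genes divided. Of 23 tested, 14 rose, 12 of them at least 2-fold, and 6 fell. *Reln*, which encodes the secreted guidance protein of Cajal-Retzius cells, was 10.5, 10.5 and 15.3 CPM at E10.5 and 177, 217 and 189 CPM at E12.5 (log2 fold change 4.0, SE 0.16, adjusted p = 1.95e-07). *Trp73*, a p53 relative found in these cells, was 7.45, 1.12 and 4.99 CPM and then 37.0, 39.8 and 33.0 CPM (3.01, SE 0.64, adjusted p = 0.0135), and 2.56 without pool 2. Its call was lost without E12.5 embryo 2 (adjusted p = 0.0530) or E10.5 pool 3 (adjusted p = 0.0507). In the other direction, the LIM factor *Lhx5* fell from 37.8 ± 3.61 to 14.9 ± 2.27 CPM, while its relative *Lhx1* rose from 2.30 ± 1.40 to 14.5 ± 1.51 CPM.

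Genes of neuronal contacts and excitability rose broadly. Of 38 axon guidance and adhesion genes 31 rose and 2 fell, of 26 synaptic vesicle and transmitter transport genes 26 rose and 0 fell, of 35 transmitter receptor subunits 33 rose and 0 fell, and of 32 voltage-gated channel subunits 27 rose and 2 fell. Their median log2 fold changes were 1.78, 2.90, 2.46 and 2.61. *Cntn2*, an adhesion protein of early axons, was 2.24, 1.46 and 2.66 CPM and then 161, 183 and 173 CPM (6.34, SE 0.16, adjusted p = 1.78e-09). *Gria2*, a subunit of AMPA receptors, was 2.22, 1.69 and 2.25 CPM and then 193, 209 and 173 CPM (6.54, SE 0.12, adjusted p = 1.38e-11). Neither gene overlapped between stages. *Grin2b*, a subunit of NMDA receptors, rose by 6.94, the vesicle proteins *Syt4* and *Snap25* by 6.32 and 3.17, and the sodium channel subunit *Scn3b* by 5.40 on the log2 scale. The glycine receptor subunit *Glra2* was at the floor at E10.5 and at least 173-fold higher at E12.5.

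Vesicular transporters of both main transmitters rose, as did an enzyme of GABA synthesis. *Slc17a6*, the vesicular glutamate transporter VGLUT2, was 5.76, 0.669 and 4.69 CPM at E10.5 and 74.2, 84.2 and 75.3 CPM at E12.5. *Gad1*, which makes GABA, was 0.798, 0.197 and 0.602 CPM and then 53.8, 53.3 and 51.9 CPM (log2 fold change 6.62, SE 0.27, adjusted p = 2.15e-07). Both glutamatergic and GABAergic genes were thus low in every pool and high in every embryo at E12.5. The vesicular GABA transporter *Slc32a1* rose by 7.51 on the log2 scale, with 18.1, 20.7 and 17.2 CPM at E12.5.

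The GABAergic genes went with a larger set of ventral genes. Of 27 genes of the ventral telencephalon and of interneurons, 26 rose, 24 at least 2-fold, and 0 fell. The median log2 fold change was 4.57, the highest of the 38 lists. *Nkx2-1*, the factor of the medial ganglionic eminence, was 0.285, 0.0984 and 0.868 CPM at E10.5 and 86.9, 75.1 and 101 CPM at E12.5 (7.66, SE 0.48, adjusted p = 5.61e-05). *Dlx1*, a factor of the ganglionic eminences and of migrating interneurons, was 8.45, 1.56 and 5.51 CPM and then 251, 246 and 244 CPM (5.57, SE 0.59, adjusted p = 0.00117). *Lhx6*, which marks interneurons derived from the medial eminence, rose from 1.83 ± 0.479 to 61.3 ± 8.31 CPM. *Gsx2*, a factor of ventral progenitors that divide, rose by 1.90 on the log2 scale, and somatostatin, *Sst*, was at least 135-fold higher.

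The summed level of 10 ventral markers was 32.4 to 57.6 CPM at E10.5 and 901 to 958 CPM at E12.5, with all 10 called higher. That of 8 dorsal markers was 915 to 1074 and then 1573 to 1718 CPM, with 5 called higher and 1, *Emx2*, lower. The 5 included *Tbr1* and *Eomes*, genes of neurons and of intermediate progenitors, and *Sox2* and *Pax6* were not called. The E12.5 samples are labelled cortex and described as neocortex, and genes of ventral progenitors were present in all 3. Ventral cells within the dissected tissue and ventral cells that had migrated cannot be told apart in these counts, nor can they be told apart from the different dissection of the E10.5 vesicles.

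**Figure D2:**
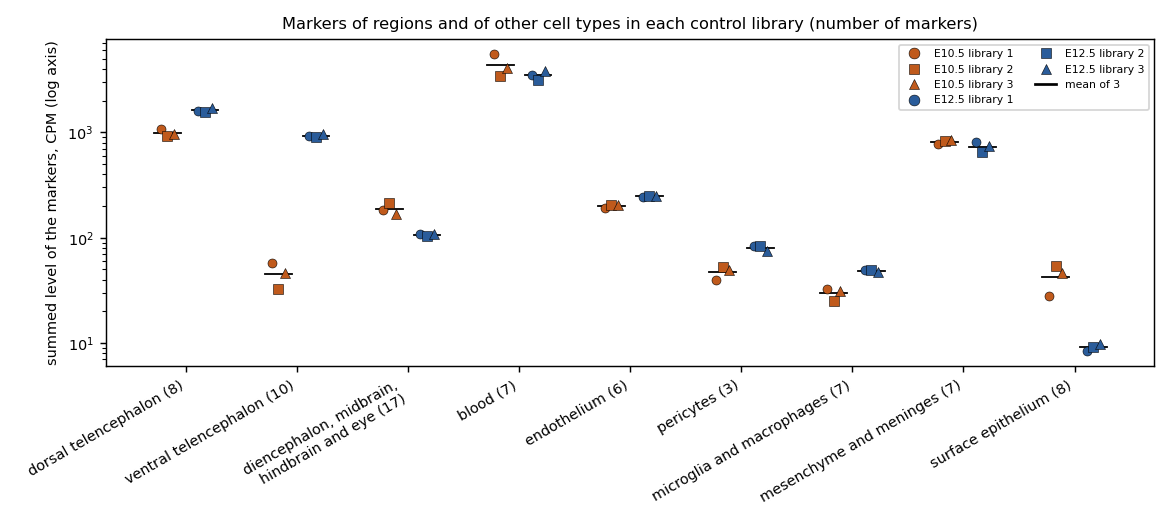
Summed level of the defining markers of 9 regions or cell types in each library, in CPM on a log axis, with orange for E10.5, blue for E12.5 and symbols for replicates. Ventral markers go from at most 57.6 CPM to at least 901 CPM, and surface epithelium falls from at least 28.2 CPM to at most 9.87 CPM. The sums of blood and of mesenchyme overlap between the stages, although single markers moved. Of 7 blood markers 1 was called higher and 2 lower, and of 7 mesenchyme markers 1 higher and 4 lower.

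Among 18 factors of the dorsal telencephalon 6 rose and 9 fell, with a median log2 fold change of -0.23. The share that rose was near the 33.7% of all genes tested. *Emx1* rose from 29.3 ± 7.37 to 51.5 ± 2.44 CPM, whereas *Emx2*, its partner in cortical patterning, fell from 150.3 ± 12.7 to 120.4 ± 4.37 CPM. *Nr2f1*, which patterns caudal cortex, rose by 0.98 and *Lhx9* by 3.58 on the log2 scale.

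Genes of the cortical hem, midline and roof mostly fell. Of 24 tested, 17 fell, 12 of them at least 2-fold, and 4 rose, with a median log2 fold change of -0.91. *Msx1*, a BMP-responsive factor of the dorsal midline, was 81.4, 92.1 and 94.8 CPM and then 16, 13.2 and 11.2 CPM (-2.73, SE 0.12, adjusted p = 8.09e-09). *Bmp4* fell by 1.84, *Wnt8b* by 1.12 and *Lmx1b* by 3.62 on the log2 scale, and *Wnt3a*, the hem signal, was 9.35 ± 3.70 and 8.82 ± 0.458 CPM (-0.09, adjusted p = 0.792). *Ttr*, which encodes transthyretin and marks the choroid plexus epithelium, went the other way, from 0.133, 0.0591 and 0.248 CPM to 70.3, 67.3 and 29.6 CPM (8.51, SE 0.66, adjusted p = 0.000189). Its level in E12.5 embryo 3 was less than in the other embryos, but far above every pool.

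Genes of the diencephalon, midbrain, hindbrain and eye were tested for 24 of 37 list members, and 13 of these fell, 12 at least 2-fold, with 4 higher. *Pax3* fell from 17.3, 28 and 16.2 CPM to 0.745, 0.628 and 0.806 CPM and *Irx3* from 17.2, 26.2 and 15.2 CPM to 1.20, 1.06 and 1.11 CPM. Both are factors of dorsal or posterior neural tissue, and *Pax3* also marks neural crest. Both were highest in pool 2. *Hoxa2* and *Hoxb2*, hindbrain genes, were at the floor at both stages.

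**Figure D3:**
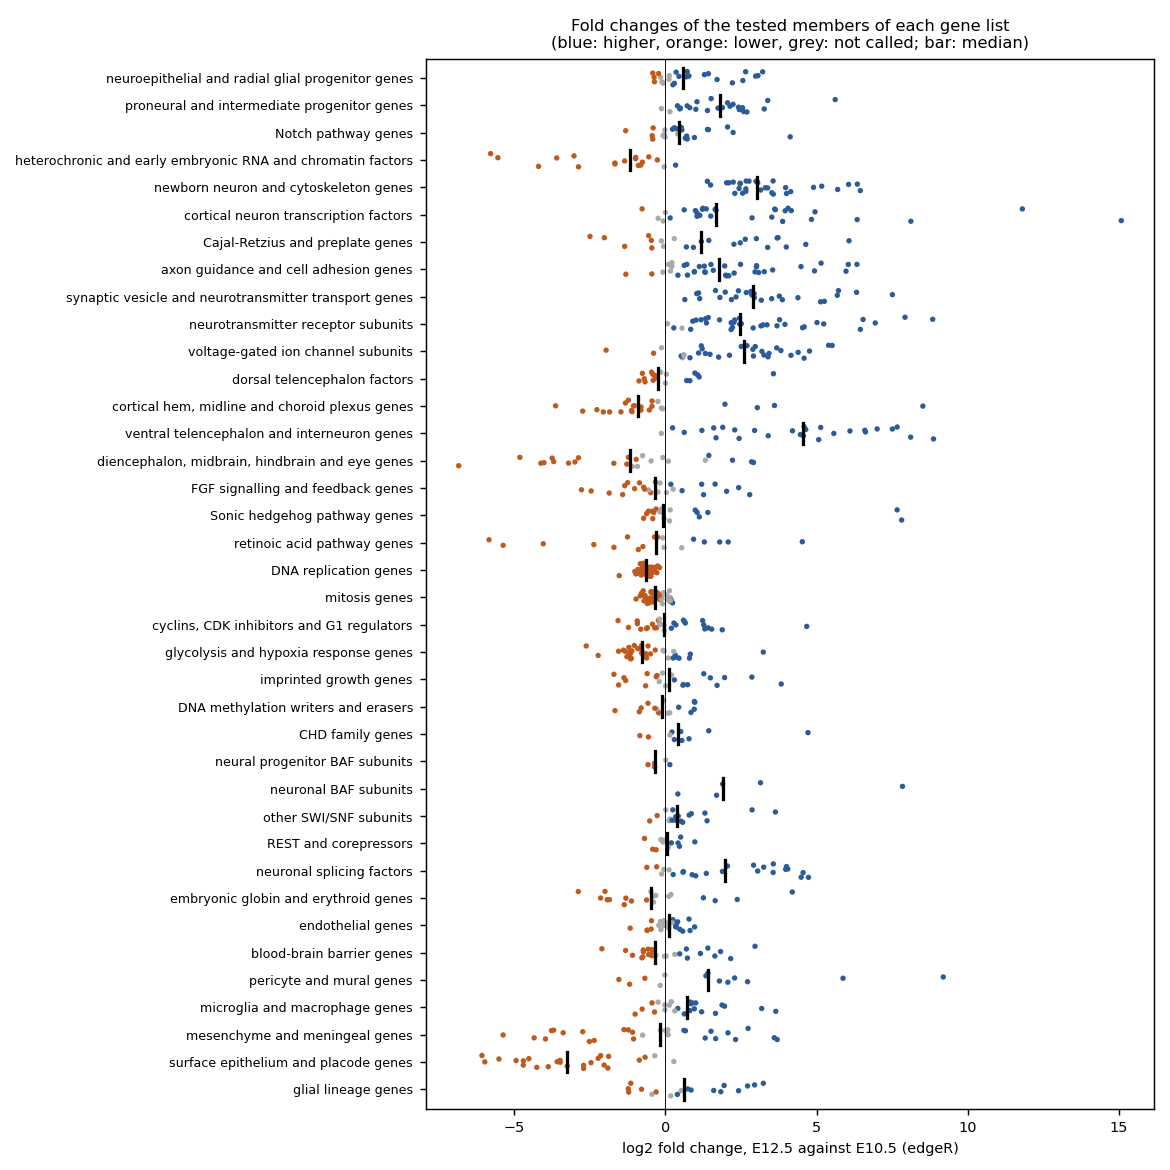
Log2 fold change (E12.5 against E10.5) of each tested gene in 38 gene lists. Blue points are genes called higher, orange points genes called lower and grey points genes not called, and the bar is the median of a list. Neuronal and ventral lists lie to the right of 0 with medians up to 4.57, and surface epithelium (-3.24), heterochronic (-1.16) and replication lists (-0.63) lie to the left.

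Signals that pattern the early forebrain fell or rose by gene. *Fgf8*, the ligand of the rostral organizer, was 14.5, 14.8 and 12.5 CPM at E10.5 and 2.17, 1.69 and 2.22 CPM at E12.5 (log2 fold change -2.77, SE 0.13, adjusted p = 4.58e-09). Feedback and target genes of FGF signalling fell with it: *Dusp6* by 1.85, *Etv4* by 1.34, *Spry1* by 0.85 and *Etv5* by 0.69 on the log2 scale, whereas *Spry2* did not pass (-0.24, adjusted p = 0.0551). The receptor *Fgfr3* rose from 44.5 ± 12.6 to 239.6 ± 20.5 CPM. Of 25 FGF genes in all, 12 fell and 8 rose.

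*Shh*, the ventral morphogen, was 0.0380, 0.0787 and 0.0177 CPM at E10.5 and 9.44, 8.98 and 12.8 CPM at E12.5 (log2 fold change 7.81, SE 0.30, adjusted p = 8.8e-10). Its receptor *Ptch1* rose by 1.05 on the log2 scale, and *Gli1*, like *Ptch1* a transcriptional target of the pathway, fell by 0.72 (adjusted p = 0.0177). Of 19 genes of the hedgehog pathway 6 rose and 7 fell, near the 33.7% and 33.8% of all genes tested.

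Among 18 genes of retinoic acid signalling 10 fell, 6 of them at least 2-fold, and 5 rose. *Crabp1*, which encodes a cytoplasmic retinoic acid binding protein also found in neural crest mesenchyme, was 309.9, 403 and 304 CPM and then 7.88, 8.52 and 8.39 CPM (-5.36, SE 0.12, adjusted p = 9.73e-11). *Crabp2* fell by 2.36 and *Cyp26a1*, an enzyme that degrades retinoic acid, by 5.83 on the log2 scale. *Aldh1a3*, an enzyme that makes retinoic acid, was 0.931, 7.26 and 1.33 CPM at E10.5 and 4.08, 5.0 and 4.73 CPM at E12.5. Pool 2 was above, and the other pools below, every E12.5 embryo, so that the difference did not pass (0.54, adjusted p = 0.615) with pool 2 and did without it (2.02, adjusted p = 2.75e-07).

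Heterochronic genes fell with few exceptions. Of 22 in the list 18 were tested, and of these 16 fell, 9 of them at least 2-fold, and 1 rose, with a median log2 fold change of -1.16. *Lin28a*, an RNA-binding protein that blocks let-7 maturation, was 93.2, 144 and 102 CPM at E10.5 and 2.53, 1.28 and 2.31 CPM at E12.5 (-5.77, SE 0.30, adjusted p = 7.48e-06). *Lin28b*, its homologue, was 171, 238 and 183 CPM and then 28.4, 25.9 and 26.7 CPM (-2.87, SE 0.12, adjusted p = 2.37e-08). *Trim71*, an RNA-binding ubiquitin ligase, was 48.8, 84.6 and 63.3 CPM and then 4.39, 2.80 and 3.53 CPM (-4.19, SE 0.27, adjusted p = 1.14e-05). All 3 were highest in pool 2 and at least 6 times lower in every E12.5 embryo than in every pool.

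*Hmga2*, a chromatin protein of young stem cells, remained abundant, at 1244, 1334 and 1254 CPM and then 414, 341 and 452 CPM (log2 fold change -1.67, SE 0.10, adjusted p = 4.6e-08). *Hmga1* fell by 1.34, the insulin-like growth factor mRNA-binding protein *Igf2bp1* by 0.89 and *Mycn* by 0.81 on the log2 scale. Further falls were those of *Prtg*, a receptor of early neural tissue, from 120.2 ± 31.3 to 9.95 ± 1.56 CPM, of the pluripotency factor *Sall4*, from 54.1 ± 12.1 to 6.66 ± 1.17 CPM, and of the DNA methyltransferase *Dnmt3b*, from 50.7 ± 7.97 to 16 ± 1.56 CPM. *Nr6a1*, an orphan receptor of early embryos, fell from 39.4 ± 10.3 to 8.83 ± 0.28 CPM.

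Matches to the let-7 seed were counted in the longest annotated 3' untranslated region of 14754 tested genes, on the sense strand. *Nr6a1* had 8 matches, *Lin28b*, *Trim71*, *Hmga2* and *Igf2bp1* 4 each, *Lin28a* and *Prtg* 2 each, *Hmga1* and *Sall4* 1 each, and *Mycn* and *Dnmt3b* 0. Of the 28 genes with 3 or more matches, 6 (21.4%) were at least 2-fold lower at E12.5, against 7.78% with 2, 6.58% with 1, 7.22% with 0 and 7.19% of all 14754. These 6 were *Trim71*, *Fignl2*, *Trim6*, *Lin28b*, *Nr6a1* and *Hmga2*. Of the other 22, 6 fell by less than 2-fold, *Igf2bp1* among them. The median log2 fold change of the 28 was -0.0039, and *Trim67* with 3 matches rose from 0.321 ± 0.115 to 56.5 ± 5.21 CPM. It was not alone in rising. *Mcf2l* with 7 matches rose by 1.76 on the log2 scale. *Diaph2*, *Zkscan2*, *D1Ertd622e*, *Slc22a23*, *Zfp652*, *Zbtb37* and *Zfp512b*, with 3 or 4 matches, rose by 0.36 to 0.95. *Trim71*, *Lin28b* and *Hmga2* are textbook let-7 targets and were listed with earlier results known, and the region searched was longer for genes with more matches, with a median of 4464 bases at 3 or more and 1090 bases at 0. Mature let-7 was not measured in these libraries.

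**Figure D4:**
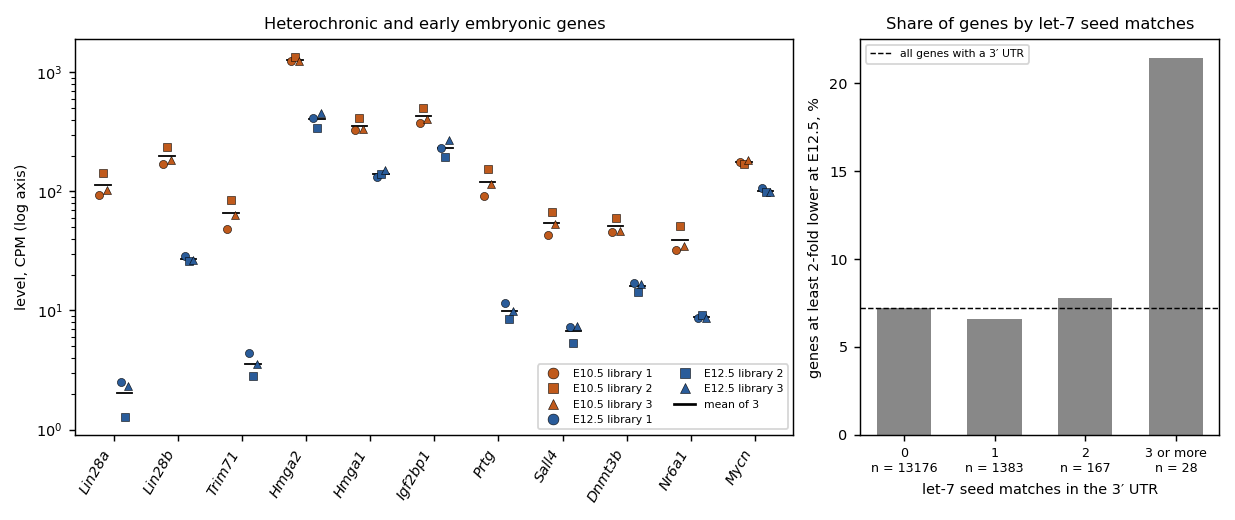
Left, levels of 11 genes, 10 of them of the heterochronic list and *Nr6a1*, in each library, in CPM on a log axis, with orange for E10.5 pools, blue for E12.5 embryos and black lines for means of 3. Right, percentage of genes at least 2-fold lower at E12.5 by number of let-7 seed matches in the 3' untranslated region, with a dashed line at the 7.19% of all genes searched. The 11 genes do not overlap between stages, and the bar for 3 or more matches (21.4%) rests on 28 genes.

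For comparison, other seeds gave different shares. Of 104 genes with 3 or more matches to the seed of miR-302d (bases 2 to 8 in capitals) and of 49 with 3 or more to that of miR-17, 0 were at least 2-fold lower, with median log2 fold changes of 0.28 and 0.41. These 2 seeds share most of their bases, so the 2 sets can share genes. The regions searched had medians of 5468 and 6834 bases, longer than for let-7, and log2 fold changes rose with exon length. For miR-125b the share at least 2-fold lower was 6.49% of 77 genes and for miR-9 13.7% of 51.
miR-302d: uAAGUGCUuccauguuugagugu
miR-17: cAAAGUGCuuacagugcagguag
miR-125b: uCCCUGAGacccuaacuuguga
miR-9: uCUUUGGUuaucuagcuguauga

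All 42 genes of DNA replication fell, 2 of them at least 2-fold, with a median log2 fold change of -0.63. *Orc1*, a subunit of the origin recognition complex, was 42.1, 41.6 and 41.6 CPM at E10.5 and 15.2, 13.8 and 14.7 CPM at E12.5 (-1.52, SE 0.07, adjusted p = 5.59e-09). *Cdt1*, which licenses origins, was the other gene past 2-fold (-1.01), and *Mcm2*, a subunit of the replicative helicase, fell from 422 ± 8.77 to 295 ± 16.7 CPM. Of 41 mitosis genes 26 fell, 0 of them at least 2-fold, and 2 rose. *Cdk1*, the mitotic kinase, fell by 0.78 on the log2 scale. *Mki67*, the common mark of dividing cells, was 822, 788 and 869 CPM and then 892, 907 and 953 CPM (0.15, adjusted p = 0.0992), and *Top2a* was 1053 ± 88.4 and 985 ± 60.1 CPM (-0.10, adjusted p = 0.354). Removing each library's trend with exon length and GC content changed these values to -0.24 (adjusted p = 0.0104) for *Mki67* and -0.45 (adjusted p = 0.000575) for *Top2a*, both of which have long transcripts.

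G1 regulators divided, with 13 of 29 higher and 12 lower. *Ccnd2*, a D-type cyclin, rose from 475 ± 47.6 to 1270 ± 71.1 CPM, *Ccnd1* was 371 ± 27.3 and 362 ± 30.4 CPM (adjusted p = 0.722), and *Ccne1*, the cyclin of S-phase entry, fell from 96.0 ± 10 to 32.5 ± 1.41 CPM. *Cdk5r1*, the activator of the neuronal kinase CDK5, rose by 4.68 on the log2 scale, and the inhibitors *Cdkn1a* and *Cdkn1c* by 1.88 and 0.60. The call of *Cdkn1c* was lost with no filter on low counts (adjusted p = 0.0691) and with all 18 libraries in the fit (adjusted p = 0.0555).

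Stretches of 3 replication gene promoters are shown, from RefSeq (GRCm38.p6), since the list fell as a whole and such genes are textbook targets of E2F factors. The 3 were picked among promoters that held a match, which most promoters of the list did not. Capitals mark a match to one of 4 E2F-type sequences (TTTCCCGC, TTTGGCGC, TTTCGCGC and TTTGCCGC, searched on both strands). They lie at chr4:108579354-108579453 on the plus strand for *Orc1*, chr11:98907967-98908066 on the plus strand for *Cdc6* and chr1:128359706-128359805 on the minus strand for *Mcm6*.
Orc1: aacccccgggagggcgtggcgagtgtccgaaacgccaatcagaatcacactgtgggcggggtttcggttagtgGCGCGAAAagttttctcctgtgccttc
Cdc6: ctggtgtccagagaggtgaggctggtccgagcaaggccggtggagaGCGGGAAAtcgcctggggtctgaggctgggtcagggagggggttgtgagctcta
Mcm6: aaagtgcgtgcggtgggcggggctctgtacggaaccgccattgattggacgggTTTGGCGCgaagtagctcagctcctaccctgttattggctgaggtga

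In windows from 250 bases before to 50 bases after a start, 14 of the 41 promoters listed for 34 replication genes held such a match (34.1%), as did 2.26% of all 32851 promoters and 1 of 36 promoters of mitosis genes. The CHR element TTTGAA, searched on both strands, was in 28 of the 36 mitosis promoters (77.8%), in 12.2% of replication promoters and in 17.9% of all. CCAAT was in 61% and 75% of replication and mitosis promoters and in 37.4% of all. A match is a description of the letters in these windows and not a bound site.

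Genes of glycolysis and of the response to low oxygen mostly fell. Of 35 tested, 24 fell, 14 of them at least 2-fold, and 7 rose, with a median log2 fold change of -0.77. *Ldha*, which turns pyruvate into lactate, was 1374, 1259 and 1671 CPM and then 472, 508 and 496 CPM (-1.54, SE 0.10, adjusted p = 1e-07). *Slc16a3*, a lactate exporter, was 108, 106 and 130.3 CPM and then 26.7, 21.6 and 25.8 CPM (-2.22, SE 0.10, adjusted p = 6.95e-09). The libraries of each gene did not overlap. The glucose transporters *Slc2a3* and *Slc2a1* fell by 2.61 and 0.77, and *Aldoa*, *Pdk1* and *Bnip3* by 1.33, 1.15 and 1.10. *Aldoc*, the aldolase of radial glia and astrocytes, rose by 3.24, all on the log2 scale.

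Imprinted growth genes moved in both directions, 10 of 22 higher and 8 lower. *H19*, an imprinted noncoding RNA of early growth, fell from 967 ± 50.3 to 298 ± 23 CPM, while its neighbour *Igf2* was 342 ± 55.7 and 298 ± 19.1 CPM (-0.20, adjusted p = 0.125). *Ndn*, an imprinted gene of neurons after division, was 70.3, 59.1 and 59.0 CPM at E10.5 and 120.1, 332 and 280.7 CPM at E12.5 (1.96, adjusted p = 0.0158). Embryo 1 was the lowest of the E12.5 embryos, though above every pool. The call was lost without E12.5 embryo 3 or without any 1 pool (adjusted p = 0.0518 to 0.0638).

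In the BAF chromatin remodelling complex, neurons are known to replace progenitor subunits by homologues. All 5 neuronal subunits rose, 4 of them at least 2-fold, and of 5 progenitor subunits 3 fell and 1, *Bcl7c*, rose by 0.15 on the log2 scale (adjusted p = 0.0474, and 0.0529 to 0.214 without E12.5 embryo 1 or 3 or E10.5 pool 1 or 3). *Actl6b* was 0.342, 0.0787 and 0.159 CPM and then 43.8, 52.1 and 39.2 CPM (log2 fold change 7.84, SE 0.26, adjusted p = 1.01e-08), while its progenitor counterpart *Actl6a* fell from 168 ± 12.2 to 131 ± 9.67 CPM. *Dpf1* and *Dpf3* rose by 1.90 and 3.15 and *Phf10* fell by 0.35, and *Ss18l1* rose by 1.70 and *Ss18* fell by 0.57 on the log2 scale. *Rest*, which represses neuronal genes outside neurons, fell from 83.2 ± 6.57 to 51.7 ± 3.14 CPM.

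*Chd8* itself (chromosome 14, 52198151 to 52257723 in GRCm38) was 159, 166 and 182 CPM in the E10.5 pools with floxed alleles and 237, 240.1 and 245 CPM in the Chd8 +/+ neocortices (log2 fold change 0.51, SE 0.06, adjusted p = 2.05e-05). After exon length and GC trends were removed it was -0.076 (adjusted p = 0.223), so the direction rests on the scaling, and the allele cannot be told apart from stage. Of the 10 CHD genes 7 rose and 2 fell, with a median of 0.41, or -0.10 without these trends. *Chd5*, a neuronal member, rose from 1.46 ± 0.0431 to 38.4 ± 6.15 CPM, *Chd3* by 1.44 on the log2 scale, and *Chd1* fell by 0.56.

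Among genes of DNA methylation 5 of 16 rose and 6 fell, near the 33.7% and 33.8% of all genes tested. The fall of *Dnmt3b* (-1.66) stood beside a rise of *Dnmt3a* from 159 ± 3.98 to 286 ± 13.9 CPM (0.85, SE 0.06, adjusted p = 1.73e-07). Of 24 neuronal splicing regulators 19 rose, 15 at least 2-fold, and 2 fell. *Ptbp1*, which holds back neuronal exons in progenitors, fell from 528 ± 37.7 to 346 ± 16.3 CPM, and *Ptbp2*, its neuronal homologue, rose from 359.9 ± 20 to 545 ± 28.7 CPM (0.60, but 0.04 with adjusted p = 0.673 without length and GC trends). *Srrm4*, which promotes neuronal microexons, rose by 3.25, *Nova2* by 2.92 and *Rbfox1* by 4.73 on the log2 scale.

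Globin transcripts were among the abundant transcripts of both stages. In the mouse, primitive red cells of the yolk sac express *Hbb-bh1*, *Hbb-y* and *Hba-x* and switch among them as they mature, and adult-type globins come later. *Hbb-bh1* was 1415, 898 and 997 CPM at E10.5 and 169, 119 and 163 CPM at E12.5 (log2 fold change -2.88, SE 0.21, adjusted p = 8.48e-06). *Hbb-y* overlapped between stages, at 1842 ± 509.9 and 1998 ± 235 CPM (0.12, adjusted p = 0.592). *Hba-x* overlapped as well (-0.32, adjusted p = 0.12) and fell by 0.45 without pool 2 (adjusted p = 0.00899). Per kilobase of exon, *Hbb-bh1* was thus below *Hbb-y* at both stages, with 1797 against 2787 CPM per kilobase at E10.5 and 245 against 3023 at E12.5.

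The adult-type genes rose, *Hba-a1* from 130.3 ± 40.1 to 312 ± 38.9 CPM and *Hbb-bs* from 3.74, 1.61 and 2.14 CPM to 45.9, 43.1 and 48.8 CPM (4.2, SE 0.27, adjusted p = 1.15e-05). *Hba-a1* and *Hba-a2*, and *Hbb-bs* and *Hbb-bt*, are near-identical pairs that can share reads, so the split within a pair is uncertain, and *Hba-a1* lost its call in the second run alone (adjusted p = 0.205). Factors of red cell precursors fell, with *Gata1* at 6.04 ± 1.34 and 1.59 ± 0.169 CPM and *Klf1* at 6.32 ± 1.22 and 1.76 ± 0.208 CPM. In all, 4 of 19 erythroid genes rose and 9 fell. The summed level of 7 blood markers overlapped, at 3399 to 5503 and 3116 to 3848 CPM.

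**Figure D5:**
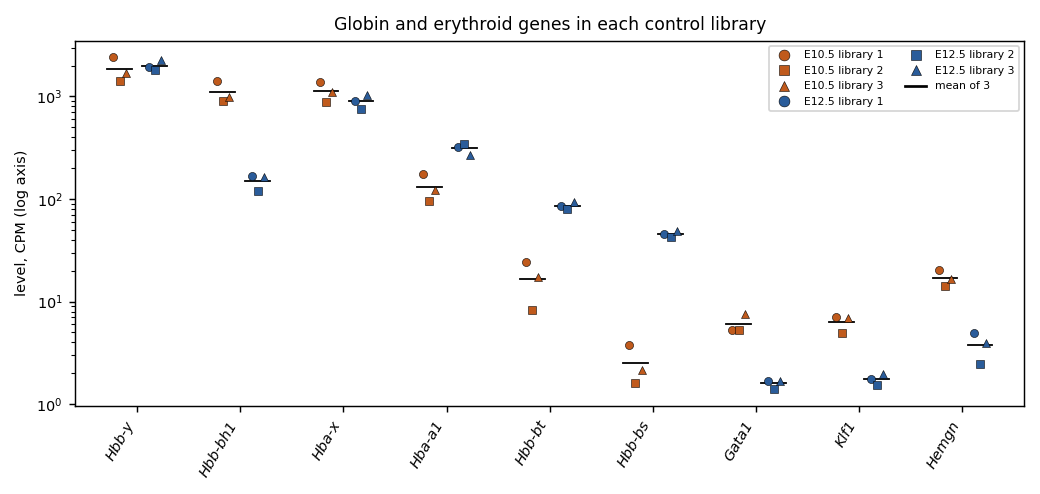
Levels of 9 globin and erythroid genes in each library, in CPM on a log axis, with orange for E10.5 pools, blue for E12.5 embryos and black lines for means of 3. *Hbb-y* and *Hba-x* overlap between the stages, *Hbb-bh1* and the precursor genes are lower at E12.5, and *Hba-a1*, *Hbb-bt* and *Hbb-bs* are higher.

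Of 26 endothelial genes 10 rose, 0 of them at least 2-fold, and 5 fell, 1 at least 2-fold. The share that rose was near the 33.7% of all genes tested. *Cdh5* rose by 0.36 and *Pecam1* by 0.41 on the log2 scale, and *Cldn5* was 13.2 ± 0.748 and 12.9 ± 0.399 CPM (adjusted p = 0.777). Of 13 genes of pericytes and mural cells 8 rose, all at least 2-fold, and 3 fell. *Rgs5*, a pericyte marker, was 0.589, 0.551 and 0.513 CPM and then 31.6, 36.8 and 29 CPM (5.88, SE 0.14, adjusted p = 3.94e-11), and *Kcnj8* was at least 90.8-fold higher. *Pdgfrb* did not pass (-0.17, adjusted p = 0.176). Among 26 blood-brain barrier genes 9 rose and 12 fell. The drug exporter *Abcb1a* rose by 1.64, the lipid transporter *Mfsd2a* was 25 ± 1.06 and 25.5 ± 0.901 CPM, and *Abcg2* fell by 0.57 on the log2 scale.

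Of 24 microglia and macrophage genes 14 rose, 7 at least 2-fold, and 4 fell. *Csf1r*, the receptor these cells need to survive, was 8.23, 7.56 and 9.15 CPM and then 15, 15.1 and 13.8 CPM (0.81, SE 0.10, adjusted p = 1.44e-05), and the complement gene *C1qa* rose by 1.88 and *P2ry12* by 1.96 on the log2 scale. Of 18 glial lineage genes 10 rose and 5 fell. *Nfia*, a factor of the later glial switch and also of neurons, rose by 4.06, and *Olig2*, which at this stage marks ventral progenitors, by 2.95, while *Aldh1l1*, an astrocyte enzyme, was 1.72 ± 0.407 and 1.27 ± 0.306 CPM (-0.44, adjusted p = 0.111).

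Of 25 surface epithelium and placode genes tested 23 fell, 21 of them at least 2-fold, and 0 rose, with a median log2 fold change of -3.24, the lowest of the 38 lists. *Cdh1*, the epithelial cadherin, was 5.53, 11.8 and 9.17 CPM and then 0.647, 0.869 and 0.871 CPM (-3.48, SE 0.30, adjusted p = 6.78e-06). *Krt8* fell by 3.24 and *Trp63*, the p63 factor of epidermis, by 6.06 on the log2 scale. *Esrp1*, an epithelial splicing factor, was 1.54, 10.3 and 5.17 CPM and then 0.176, 0.121 and 0.348 CPM (-4.69, adjusted p = 0.0118), and its call was lost without E12.5 embryo 2 (adjusted p = 0.0681). Pools 2 and 3 held more of these transcripts than pool 1: the sum over 8 markers was 28.2 to 53.6 CPM at E10.5 and 8.46 to 9.87 CPM at E12.5, where *Krt5*, *Krt14* and *Krt15* were at the floor.

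Mesenchyme and meningeal genes divided, with 10 of 29 higher and 13 lower, all 13 at least 2-fold. The share called higher was near the 33.7% of all genes tested, of which 9.1% were at least 2-fold lower. Genes of the early cranial mesenchyme fell, with *Alx4* at 135 ± 35.7 and 13 ± 2.16 CPM and *Twist1* at 41.4 ± 9.69 and 2.65 ± 0.416 CPM. Collagen *Col1a1* rose from 46 ± 6.64 to 115 ± 15 CPM and the matrix protein *Dcn* from 1.35 ± 0.425 to 17.6 ± 0.505 CPM, and *Col1a2* overlapped (-0.16, adjusted p = 0.212). The summed level of 7 mesenchymal markers was 769.6 to 848 CPM at E10.5 and 644 to 802 CPM at E12.5. The part of mesenchyme and surface tissue in the falls of *Crabp1*, *Pax3* and *Msx1* was not tested.

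The largest changes were looked for among called genes with at least 100 counts on average in the higher stage, no overlap between stages and a symbol that does not start with Gm or end in Rik, and most were of genes at or near the floor at 1 stage. Besides *Neurod6*, *Neurod2*, *Glra2* and *Kcnj8*, the largest rises among them were those of *AI606473* (at least 196-fold), the neuropeptide gene *Npy* (at least 72.7-fold), the pseudogene *Rpl15-ps3* (at least 67.6-fold) and *Rph3a*, a vesicle protein, at 0.0363 ± 0.0354 and 17.2 ± 1.59 CPM. The largest falls among such genes were those of *Inmt* (5.97, 6.46 and 6.52 CPM, then 0 counts, at least 96.4-fold lower), *Dpep1* (at least 106-fold), *Mir6240* (at least 65.2-fold), *Cxcl13* (at least 55.4-fold), *Foxi2* (at least 41.7-fold), *Gabrp* (at least 30.9-fold), *Tdpx-ps1* (at least 28.9-fold) and the keratin gene *Krt7* (9.75 ± 3.27 and 0.128 ± 0.0451 CPM). *Inmt*, *Dpep1*, *Cxcl13* and *Foxi2* were between 0 and 0.216 CPM in all 9 mutant E12.5 libraries as well, whereas *Gabrp* reached 2.53 CPM in 1 of them.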

How the data were processed

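RNA sequencing counts of 3 control pools at E10.5 and 3 control embryos at E12.5 were used. According to the methods and processing notes, the authors trimmed the paired 75-base reads with Trim Galore 0.4.1, aligned them to GRCm38.p4 with TopHat2 2.1.0, counted them on genes with featureCounts 1.5.0 (the strand setting is not given in the sources used here) and deposited raw counts per gene and run, without normalization. The library kit marks strand. The 2 runs of each library were summed, and 0 columns were left out. The 46603 genes of both tables were joined by identifier, and 598 had no symbol. Samples were grouped by their titles.

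The summed counts were tested with edgeR 4.0.16 (R 4.3.3): filterByExpr, TMM, robust quasi-likelihood fits with stage as the only term, and Benjamini-Hochberg adjustment over all genes tested. The script was tested on simulated data. The methods say that, where genotypes were compared, replicates came from separate litters. Here p-values measure only the spread between these 6 libraries. Genes whose libraries at a stage all held at most 3 counts (0.0564 CPM at E10.5, 0.0655 CPM at E12.5) were treated as at the floor, which is set per library and covers counting error only, and their folds are given as bounds. Members and the 38 lists were chosen with earlier results of these data known. Named were anchor genes of the lists, up to 4 called genes per list with the largest change, a mean of at least 100 counts and separate stages, and the 8 largest rises and falls whose higher stage averaged 100 counts or more, with separate stages and a symbol neither starting with Gm nor ending in Rik (219 genes in all). Other genes named, among them *Nr6a1*, *Trim6*, *Fignl2*, *Trim67*, *Gata1* and *Klf1*, were chosen after their values were seen. Alternatives were DESeq2 1.42.0, RLE and upper quartile scaling, globin and mitochondrial genes left out, no filter, the replicate number as a block, all 18 libraries, each run alone, loess trends with exon length and GC content removed (GC known for 99.47% of genes), a test against a 2-fold change, and each library left out in turn. A covariate for sex-linked expression was chosen after seeing the data. Figures were drawn with Python 3.11.15 and matplotlib 3.10.9.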

Additional observations from a re-analysis of the deposited data

How the results depend on the processing

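The counts of genes that rose (6265) and fell (6275) stayed within 1.5 times under each alternative. Leaving out each library in turn gave 5940 to 6311 higher and 5767 to 6189 lower genes, of which 2891 to 3082 and 1654 to 1800 changed at least 2-fold. A test against a 2-fold change called 2140 higher and 935 lower genes, the latter under the 1690 of the fold threshold alone, since it asks that the fold itself exceed 2. Rises made up 6265 of 12540 calls, and 45.8% with upper quartile scaling, which moved the median of all genes to -0.06. DESeq2 gave 6156 and 5962, the sex covariate 5990 and 5992. With the replicate number as a block the counts were 5882 and 5811, 2848 and 1677 of them at least 2-fold, and *Eomes* (adjusted p = 0.0829), *Trp73* (0.0658), *Ndn* (0.0792) and *Bcl7c* (0.127) lost their calls. Same-numbered libraries had correlations of -0.203, -0.0171 and 0.0731 of their deviations, so the numbers do not pair the samples.

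Removing trends with exon length and GC content kept 10925 of 12540 calls and turned 425. It turned *Chd8* (-0.076), *Kdr* (-0.070), *Mki67* (-0.24), *Rcor3* (-0.069) and the median of the CHD family (-0.10), and the second run alone turned the median of the DNA methylation genes (0.035). Of the 219 named genes 194 kept their call, or their lack of one, throughout. The sign of a gene without a call could still change, as for *Fezf2* (0.01, and -0.05 with upper quartile scaling). Of 38 list medians 24 stayed the same throughout. Among the 646 values of these medians 20 moved in size and 2 turned. The 3 samples a stage and the floor of 3 counts limit what can be seen of rare transcripts, and stage cannot be told apart from dissection, pooling, allele or batch.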
